A study of Homo sapiens with 18 samples.

Results

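The collagen genes described here are the protein-coding genes whose symbol consists of COL, a number, the letter A and a second number. The RefSeq annotation (GRCh38.p14) holds 44 such genes among 19974 protein-coding genes on chromosomes 1 to 22 and X. Each was searched for binding sites of MAX, the DNA-binding partner of the transcription factor MYC, in 3 deposited peak lists. A peak was counted at a gene end when its summit was no more than 2500 bp from either outer end of the gene, and in the gene body when the summit was inside the gene and farther from both ends.

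MAX had been immunoprecipitated and sequenced (ChIP-Rx) in U2OS, a human osteosarcoma cell line in which the endogenous MYC gene was knocked out and a Tet-On copy of MYC was introduced. The copy encoded a mutant named 3A in 1 set of cells, a mutant named 7A in another, and wild-type MYC (WT) in the reference cells, and the labels do not state which residues the mutants change. Each form was studied with doxycycline (Dox) at 1 µg/ml for 24 h and with PBS in its place, in 2 immunoprecipitated libraries and 1 input each, or 18 libraries in all, and every library contained 10% mouse NIH3T3 cells as a reference genome. All groups therefore share the knockout, the Tet-On system and the added mouse cells, and a single cell line stands behind every value.

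There were 27294 peaks for 3A, 25159 for 7A and 34622 for WT. Each list is 1 undivided set without replicates or a split by Dox, so no value below has a replicate check, no test between MYC forms was possible, and depth per library is unknown. The sources used here do not state whether peaks were called on pooled libraries or against the cells without Dox. Fold enrichment is the authors' linear ratio of each peak over its background, used here to rank peaks within a list. The top percentage of a peak is its rank by that ratio divided by the length of its list. Folds from the lists stand side by side as descriptions, since the lists differ in length and were called separately.

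Collagens are secreted or membrane-bound proteins of the extracellular matrix whose chains wind around one another into a stiff helix. Their classes include fibril formers of bone, cartilage and skin, sheet-forming type IV chains of basement membranes, fibril-associated chains, beaded filaments and transmembrane forms. Bone-forming cells, from which osteosarcoma is thought to arise, mainly secrete type I collagen. MYC and MAX bind DNA as a pair, with the E-box CACGTG as their best-known site, and MAX also pairs with other members of its network.

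In the full lists, collagen genes carried fewer gene-end MAX peaks than protein-coding genes at large in both mutant lists, and nearly the same share in the WT list. A gene-end peak was present at 19 of 44 collagen genes in 3A (43.2%), 20 in 7A (45.5%) and 27 in WT (61.4%), against 61%, 60.2% and 63.7% of all protein-coding genes in the same lists. The 3A and 7A counts fell short of the share of all genes, while the WT count came near it. Where RefSeq promoter entries give a start (32 collagen genes), a peak on the start side was listed for 12 in 3A, 14 in 7A and 18 in WT, against 60.3%, 59.5% and 62.6% of all genes with such an entry.

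The difference between the WT and mutant counts went together with list length. When every list was held to its strongest 25159 peaks by −log10 q, 17 collagen genes kept a gene-end peak in 3A, 20 in 7A and 18 in WT, against 59%, 60.2% and 57.4% of all genes. The WT list lost 9 collagen genes under that limit, whose peaks were in its weakest part, among them COL14A1, COL22A1 and 4 type IV genes. Between the lists of equal length, the number of collagen genes with a gene-end peak thus differed by at most 3. The collagen shares were then 38.6% in 3A, 45.5% in 7A and 40.9% in WT, below that of all genes in every list, WT included.

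Peaks inside the gene and away from its ends were common at collagen genes. A body peak without any gene-end peak was found at 13 collagen genes in 3A, 13 in 7A and 11 in WT, or 29.5%, 29.5% and 25% of the 44, against 6.67%, 6.45% and 7.09% of all genes. Collagen genes are long, with a median length of 144.7 kb against 24.2 kb for all genes, and among all genes a body peak was more frequent at longer genes. Among the 22 collagen genes of 150 kb or more, 11 had a body peak in 3A, 10 in 7A and 16 in WT, against 57.3%, 54.6% and 68.9% of all genes of that length, which is close to the background. At shorter lengths the collagen shares were numerically higher than the background, on few genes and without matching of lengths within each range. Of the 12 collagen genes under 50 kb, 3 had a body peak in 3A, 3 in 7A and 5 in WT, against 9.61%, 9.08% and 11.8% of all such genes. In every list COL9A3 was among them, with a peak just past the 2500 bp limit. Of the 10 between 50 and 150 kb, 5 had one in each list, against 35.7%, 33.6% and 41.9%, so the WT share was near the background. Gene-end peaks at the 22 genes of 150 kb or more numbered 10 in 3A, 12 in 7A and 16 in WT, against 68.3%, 67.7% and 73.1%. Between 50 and 150 kb, 4 of the 10 had a gene-end peak in each list, against 70%, 69.4% and 72.4%. Under 50 kb, 5 of the 12 had one in 3A, 4 in 7A and 7 in WT, against 57.2%, 56.3% and 59.6%. Per 100 kb of gene body, collagen genes held 0.742 peaks in 3A, 0.638 in 7A and 1.19 in WT, and all genes held 0.666, 0.599 and 0.912. The exact 95% Poisson intervals of the collagen values were 0.551 to 0.978 in 3A, 0.462 to 0.86 in 7A and 0.941 to 1.48 in WT, and they cover counting error only. With lists of equal length the collagen density in WT fell to 0.668, outside that interval, beside 0.668 in 3A and 0.638 in 7A, and all genes held 0.607 in 3A, 0.599 in 7A and 0.616 in WT.

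No peak of any kind was listed for 12 collagen genes in 3A, 11 in 7A and 6 in WT, against 32.3%, 33.3% and 29.2% of all genes. With lists of equal length these counts were 14 in 3A, 11 in 7A and 12 in WT, against 34.2%, 33.3% and 35.3%. In the full lists, the 6 genes at which no list had a peak were COL1A2, COL24A1, COL11A2, COL6A3, COL6A5 and COL6A6, and 28.5% of all genes were without a peak in every list. At 31 collagen genes (70.5%) each list had at least 1 peak, against 65.7% of all genes.

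**Figure D1:**
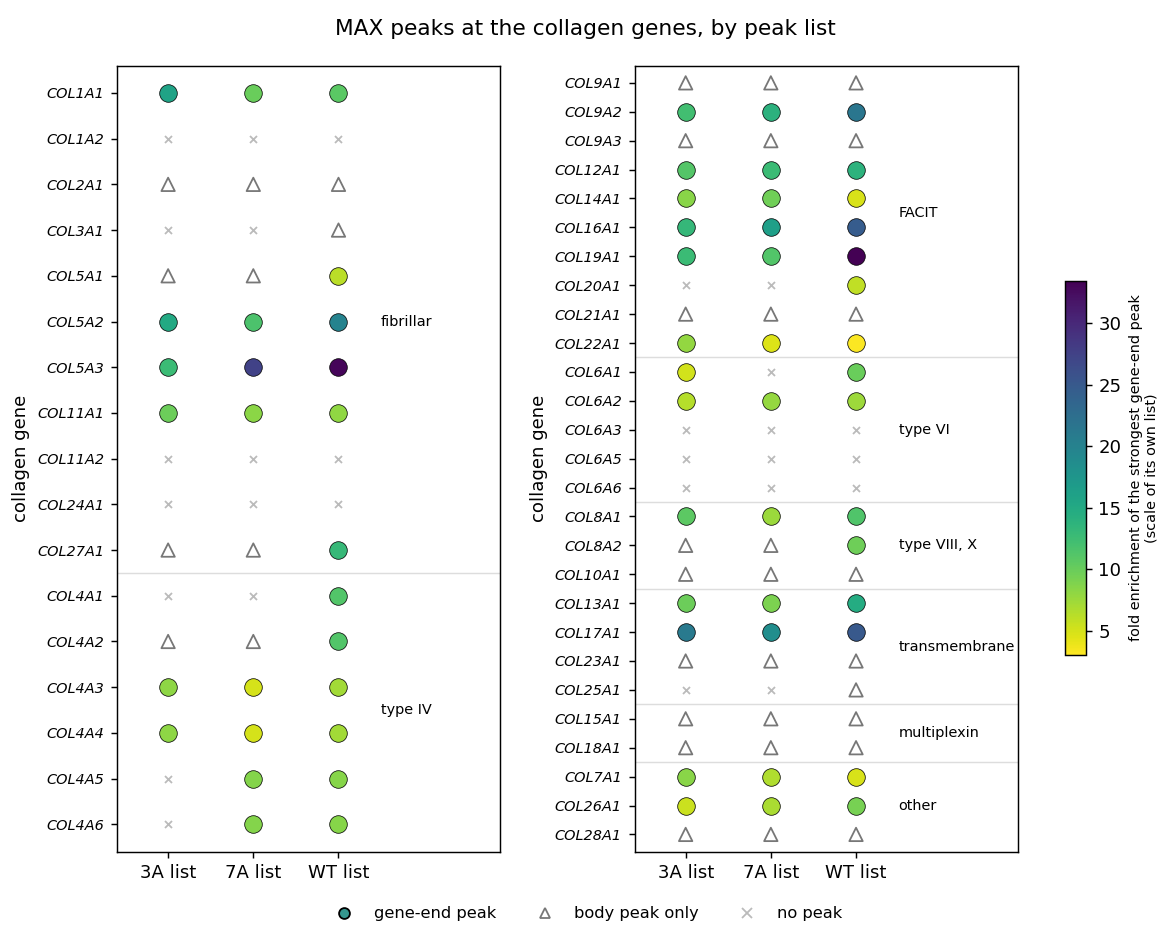
Presence of MAX peaks at the 44 collagen genes in the 3A, 7A and WT lists, grouped by collagen class. Filled circles are gene-end peaks coloured by the fold enrichment of the strongest one, on the scale of its own list, open triangles are genes with peaks in the body alone, and crosses are genes without a peak; 18 genes have a filled circle in every list and 6 have one in the WT list alone.

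Gene-end peaks were found in every list at 18 collagen genes, or 40.9%, against 59% of all genes. COL6A1 had one in 3A and WT (1.39% of all genes), COL4A5 and COL4A6 in 7A and WT (0.721%), and 6 genes in WT alone (2.54%). Those 6 were COL4A1, COL4A2, COL5A1, COL8A2, COL20A1 and COL27A1. In the full lists, each collagen gene with a gene-end peak in 3A or 7A also had one in the longer WT list, and 17 genes had none anywhere. This did not hold with lists of equal length. There, 6 collagen genes had a gene-end peak in 3A and 7A and not in WT (3.05% of all genes), which were COL4A3, COL4A4, COL6A2, COL7A1, COL14A1 and COL22A1. Another pair, COL4A5 and COL4A6, had one in 7A alone (1.37%), and 6 genes had one in WT alone (1.09%).

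Fibrillar collagens build the cross-banded fibrils of connective tissue. Of these 11 genes, 4 had a gene-end peak in 3A, 4 in 7A and 6 in WT, and the 4 with one in every list were COL1A1, COL5A2, COL5A3 and COL11A1. The pair that encodes type I collagen, the main protein of bone, was split. COL1A1 (chromosome 17, 50184101 to 50201631) carried a peak at its high coordinate end with a fold enrichment of 15.8 in 3A, 9.90 in 7A and 10.8 in WT, and the WT list had another of 10.7, whereas COL1A2 (chromosome 7, 94394895 to 94431227) had no peak in any list.

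Type V collagen joins type I fibrils and limits their width. Its genes held the strongest fibrillar gene-end peaks of 7A and WT, while that of 3A was at COL1A1. At COL5A3 (chromosome 19, start at 10010504 on the minus strand) the peak had a fold enrichment of 12.7 in 3A, 27.4 in 7A and 33.1 in WT. This placed it in the top 40.6% of the 3A list, the top 9.18% of the 7A list and the top 8.16% of the WT list, the highest rank of any collagen gene in 7A. Its summit was 1554 bp inside the gene in 3A, 1574 bp in 7A and 1560 bp in WT, so all 3 lists placed it at nearly the same position downstream of the start. COL5A2 had a peak of 15.1-fold in 3A, 11.6-fold in 7A and 19.8-fold in WT, and that peak also lies at the end of the neighbouring gene WDR75. COL5A1 had an end peak in WT alone, of 6.18-fold, while a body peak 29095 bp inside by the 3A summit was in all lists, at 10.5-fold in 3A, 15.8-fold in 7A and 8.78-fold in WT.

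COL11A1, a cartilage fibril chain, had a start-side site in all lists, at 9.79-fold in 3A, 8.24-fold in 7A and 6.82-fold in WT, and a further start-side peak in WT alone of 8.08-fold. COL27A1, also a cartilage fibril chain, had start-side peaks in WT alone, the stronger of 13.1-fold, but the mutant lists held peaks just past the 2500 bp limit, 2694 bp inside at 4.81-fold in 3A and 2740 bp inside at 8.35-fold in 7A, which overlap the stronger WT peak. Its WT-alone status therefore rests on the placement of summits. COL2A1, the main collagen of cartilage, had body peaks of 4.91-fold in 3A, 9.39-fold in 7A and 14.4-fold in WT, and COL3A1, found beside type I in skin and vessels, had a single WT body peak of 5.81-fold.

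The 6 type IV genes, which encode the network of basement membranes, lie in 3 head-to-head pairs. The gap between the outer starts is 126 bp for COL4A1 and COL4A2, 135 bp for COL4A4 and COL4A3, and 379 bp for COL4A6 and COL4A5. Every pair shared 1 peak, so the 6 genes carry 3 independent readings. One RefSeq promoter window per pair is shown (GRCh38.p14, 250 bases before to 50 bases after a start, 5′ to 3′ on the strand of the named gene), because these are the shared starts whose peaks fell in different combinations of lists. All bases are in lower case, since none of the 3 motifs searched below occurs in them.
COL4A1, chr13:110307108-110307407, minus strand: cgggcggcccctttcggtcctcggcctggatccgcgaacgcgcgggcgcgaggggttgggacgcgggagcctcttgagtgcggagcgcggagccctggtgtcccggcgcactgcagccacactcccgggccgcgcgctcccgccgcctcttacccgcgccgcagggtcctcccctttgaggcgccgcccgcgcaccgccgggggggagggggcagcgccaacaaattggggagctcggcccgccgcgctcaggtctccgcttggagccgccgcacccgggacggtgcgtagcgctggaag
COL4A3, chr2:227164374-227164673, plus strand: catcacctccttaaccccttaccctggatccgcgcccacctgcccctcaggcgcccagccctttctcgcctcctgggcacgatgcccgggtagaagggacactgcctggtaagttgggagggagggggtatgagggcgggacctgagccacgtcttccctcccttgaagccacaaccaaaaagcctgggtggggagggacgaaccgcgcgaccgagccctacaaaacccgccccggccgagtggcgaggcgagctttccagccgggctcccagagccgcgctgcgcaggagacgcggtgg
COL4A6, chrX:108439409-108439708, minus strand: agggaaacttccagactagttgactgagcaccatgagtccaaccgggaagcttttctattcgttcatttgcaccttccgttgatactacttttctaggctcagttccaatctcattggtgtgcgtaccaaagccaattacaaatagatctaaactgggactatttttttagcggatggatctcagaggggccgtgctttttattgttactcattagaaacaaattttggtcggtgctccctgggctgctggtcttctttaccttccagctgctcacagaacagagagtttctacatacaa

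The pair COL4A1 and COL4A2, the chains of most basement membranes, had a shared WT peak of 11.3-fold (chromosome 13, 110306375 to 110309055) with its summit inside the COL4A1 window above, and neither mutant list had a peak at either start. At COL4A3 and COL4A4, chains of the kidney filter that are mutated in Alport syndrome, the shared peak was in every list, at 8.20-fold in 3A, 4.99-fold in 7A and 7.24-fold in WT. Its rank was low throughout, in the top 70.6% of the 3A list, the top 94.8% of the 7A list and the top 73.2% of the WT list. COL4A5 and COL4A6 on the X chromosome shared a peak of 8.65-fold in 7A and 8.58-fold in WT, with summits at 108439566 in 7A and 108439577 in WT, and the 3A list had none. Each pair thus had its own combination of lists. With lists of equal length, the WT peaks of COL4A3, COL4A4, COL4A5 and COL4A6 dropped out and that of COL4A1 and COL4A2 stayed.

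Fibril-associated collagens (FACIT) sit on the surface of fibrils or at tissue junctions. Of 10 genes, 6 had a gene-end peak in 3A, 6 in 7A and 7 in WT. The strongest collagen gene-end peak of the WT list lay here, at COL19A1 (chromosome 6, start at 69866556 on the plus strand), with 12.7-fold in 3A, 11.3-fold in 7A and 33.4-fold in WT. It ranked in the top 40.6% of the 3A list, the top 48.7% of the 7A list and the top 8.02% of the WT list, so it stood near the middle of both mutant lists and near the head of the WT list. COL16A1 had 13.1-fold in 3A, 16.4-fold in 7A and 24.7-fold in WT, and these were broad peaks of 2886 bp in 3A, 5434 bp in 7A and 5581 bp in WT.

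COL9A2, a chain of the cartilage type IX collagen, had 12.2-fold in 3A, 14.0-fold in 7A and 21.5-fold in WT, with a pair of start-side peaks in every list. COL12A1, which decorates type I fibrils in tendon and bone, had 11.1-fold in 3A, 12.7-fold in 7A and 13.9-fold in WT. COL14A1, of a related type, had 8.36-fold in 3A, 9.64-fold in 7A and 4.89-fold in WT, while its body peak had 9.10-fold in 3A, 11.1-fold in 7A and 29.3-fold in WT. In the WT list the COL14A1 body peak therefore far outranked the end peak, at rank 3650 against rank 31848. COL22A1, found at muscle-tendon junctions, had the weakest collagen end peak of the WT list, of 7.92-fold in 3A, 4.57-fold in 7A and 3.20-fold in WT. COL20A1 had a WT peak of 5.95-fold that also lies at the end of ARFGAP1.

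The other FACIT genes had body peaks alone. At COL9A1 the body peak reached 20.9-fold in 3A, 18.4-fold in 7A and 9.47-fold in WT, and its summit was 690 bp (3A), 683 bp (7A) and 688 bp (WT) downstream of a second annotated start inside the gene. COL9A1 is thus counted as body-bound by its outer ends, although the peak is near an internal start. COL21A1 had its strongest body peak at 13.9-fold in 3A, 14.4-fold in 7A and 18.1-fold in WT. COL9A3 had a peak just past the limit in every list, 2540 bp inside at 8.09-fold in 3A, 2538 bp at 6.58-fold in 7A and 2536 bp at 5.74-fold in WT.

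Type VI collagen forms beaded filaments around muscle and other cells. A gene-end peak was found at 2 of its 5 genes in 3A, 1 in 7A and 2 in WT, and the remaining 3, COL6A3, COL6A5 and COL6A6, had no peak anywhere. COL6A2 had one in every list, with summits close to the start, 3 bp after it in 3A, 11 bp after it in 7A and 75 bp before it in WT. Its fold enrichment was 6.37 in 3A, 7.86 in 7A and 7.48 in WT, low in each list. The promoter window is shown as the collagen start most closely overlaid by summits of all lists, again with none of the motifs.
COL6A2, chr21:46097862-46098161, plus strand: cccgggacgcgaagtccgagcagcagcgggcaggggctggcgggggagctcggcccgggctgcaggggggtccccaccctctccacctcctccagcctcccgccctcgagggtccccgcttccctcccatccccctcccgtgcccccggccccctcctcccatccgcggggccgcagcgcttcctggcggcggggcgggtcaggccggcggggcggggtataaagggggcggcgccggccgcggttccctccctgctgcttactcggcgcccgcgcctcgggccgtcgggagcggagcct

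COL6A1, whose chain assembles with that of COL6A2, had an end site shared by 3A and WT (chromosome 21, 45981742 to 45982952), at 5.12-fold in 3A and 3.45-fold in WT. A separate end site (45981218 to 45981558) was in WT alone at 9.93-fold, and 7A had neither. In the small type VIII and X class, COL8A1, a chain of vessel walls, had an end peak of 10.7-fold in 3A, 7.63-fold in 7A and 11.4-fold in WT. COL8A2, a chain of the corneal endothelium's basement membrane, had an end peak in WT alone, of 9.77-fold, on the side opposite its start. COL10A1, made by hypertrophic cartilage cells, had body peaks only, the strongest of 11.8-fold in 3A, 7.88-fold in 7A and 12.0-fold in WT. These body peaks also fall inside NT5DC1, a gene that overlaps COL10A1.

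Of the 4 transmembrane collagens, COL13A1 and COL17A1 had start-side peaks in all lists. COL17A1, a component of the hemidesmosomes that anchor skin cells, held the highest rank of any collagen end peak in 3A. Its fold enrichment was 21.0 in 3A, 18.5 in 7A and 25.1 in WT, which is the top 16.1%, 21.4% and 14.2% of those lists, and the summit lay 371 bp, 376 bp and 374 bp before the start. It was the sole collagen gene whose end peak stood in the top 25% of every list. COL13A1, of the neuromuscular junction, had 9.89-fold in 3A, 8.95-fold in 7A and 14.7-fold in WT. COL23A1 had body peaks only, 1 in 3A, 4 in 7A and 6 in WT, and the site in every list had 5.92-fold in 3A, 6.33-fold in 7A and 6.10-fold in WT. COL25A1, a neuronal collagen and the longest of the 44 genes at 493.9 kb, had 4 body peaks in WT, the strongest of 13.9-fold, and none in 3A or 7A.

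Among the anchoring fibril and other collagens, 2 of 3 genes had a gene-end peak in every list. COL7A1, which forms the anchoring fibrils of skin, had an end peak of 8.42-fold in 3A, 6.61-fold in 7A and 4.89-fold in WT, at the side opposite its start. In 3A and WT that peak also lies within 2500 bp of an end of UCN2. COL26A1 had start-side peaks of 5.44-fold in 3A, 6.83-fold in 7A and 9.21-fold in WT. COL28A1 had 1 body peak in each list, of 10.8-fold in 3A, 4.70-fold in 7A and 12.0-fold in WT.

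COL15A1 and COL18A1, the endostatin-type collagens of basement membranes, had no gene-end peak in any list and several body peaks in each. COL18A1, from whose chain endostatin is cut, held 6 body peaks in 3A, 6 in 7A and 8 in WT. Its strongest lay at chromosome 21, position 45460821 in 3A, 45460831 in 7A and 45460828 in WT, with 26.7-fold in 3A, 25.8-fold in 7A and 19.8-fold in WT, and ranks of 2566, 2670 and 7357. A separate, weaker peak fell 52 bp (3A), 77 bp (7A) and 825 bp (WT) downstream of an internal annotated start, at 6.75-fold, 5.60-fold and 15.8-fold in the same order. COL15A1 held 5 body peaks in 3A, 4 in 7A and 5 in WT, and the site 27440 bp inside by the 3A summit had 12.7-fold in 3A, 11.8-fold in 7A and 10.4-fold in WT.

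COL4A2 had 9 body peaks in every list, but not the same ones. A set of 6 was shared by all lists, 3 were in WT alone, and 3 were in both mutant lists and not in WT. These last 3 were the sole sites at collagen genes that 3A and 7A shared without WT. They lay 27139 bp, 36173 bp and 141123 bp from the COL4A2 start by the 3A summits, and the last was the strongest COL4A2 peak of the 3A list, with 23.5-fold in 3A and 13.2-fold in 7A. COL4A2 therefore had a start-side peak in WT alone and body sites in the mutant lists alone.

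**Figure D2:**
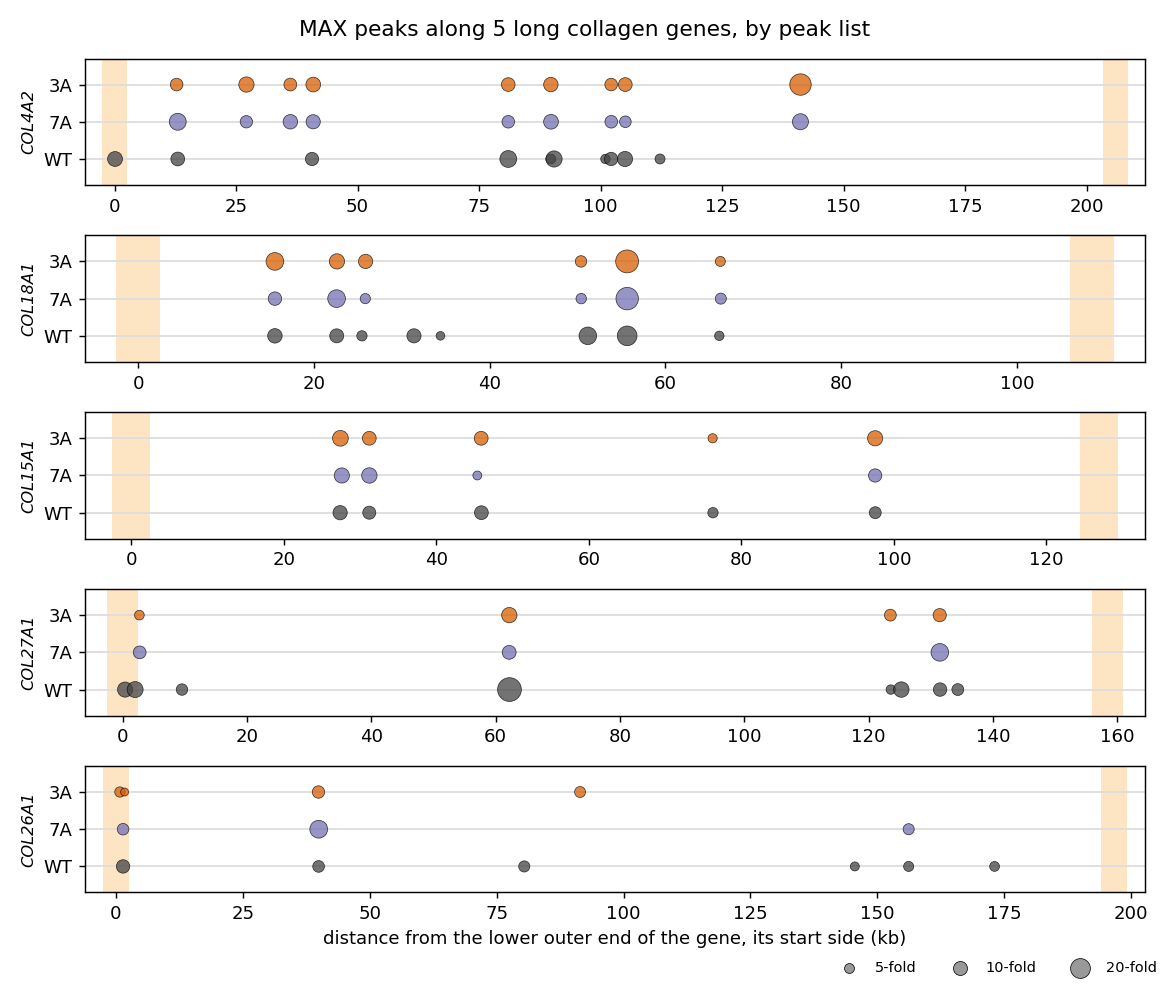
MAX peaks along COL4A2, COL18A1, COL15A1, COL27A1 and COL26A1 in the 3A, 7A and WT lists, placed by distance in kb from the lower outer end, which is the start side of all 5. Point area follows fold enrichment and shaded bands mark the 2500 bp gene-end windows; COL18A1 and COL15A1 have points in the body alone, and COL4A2 has 9 body points in each list.

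Other genes had strong body peaks whose rank depended on the list. In COL27A1 the site 62206 bp inside by the 3A summit had 12.1-fold in 3A, 9.82-fold in 7A and 28.9-fold in WT. COL4A3 had a WT body peak of 20.6-fold without a counterpart in either mutant list. COL22A1 had 4 body peaks in 3A, 1 in 7A and 7 in WT.

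Taken peak by peak, the collagen genes held 71 peaks in 3A, 62 in 7A and 111 in WT, at 117 distinct regions once overlapping peaks were joined. Of these regions, 53 were in every list, 42 in WT alone, 4 in 3A alone and none in 7A alone. A further 3 were in 3A and 7A, 9 in 3A and WT, and 6 in 7A and WT. Mutant peaks nearly always fell on a WT peak: 64 of 71 from 3A and 59 of 62 from 7A, against 95.4% and 96.6% of all peaks of those lists. In the other direction, 63 of 111 WT collagen peaks (56.8%) were overlapped by a 3A peak and 60 (54.1%) by a 7A peak, against 74% and 69.9% of all WT peaks. The exact 95% binomial intervals were 47 to 66.1% for 3A and 44.3 to 63.6% for 7A. WT peaks overlapped in neither mutant list numbered 42 (37.8%), against 22.9%.

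The lower overlap held for both places. Of the 31 WT peaks at collagen gene ends, 21 were overlapped in 3A and 20 in 7A, against 89% and 87.2% of all WT gene-end peaks. Of the 80 in collagen gene bodies, 42 were overlapped in 3A and 40 in 7A, against 67.5% and 62.1%. With lists of equal length the shares of overlapped WT collagen peaks were 66.7% (3A) and 69.7% (7A), against 82.6% and 81.9% of all WT peaks. Where a mutant peak overlapped a WT peak, the median distance to the nearest summit of the WT peak was 25.5 bp for the 64 peaks of 3A and 17 bp for the 59 of 7A. It was within 50 bp for 41 of the 3A peaks and 42 of the 7A peaks.

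The WT list had end peaks at 27 collagen genes, of which 19 had one in 3A, 20 in 7A and 6 in neither, against 94.9%, 93.8% and 3.99% of all genes with a WT gene-end peak. Strength moved with this. Of the 21 genes whose strongest WT gene-end peak was under 15-fold, 13 had one in 3A, 14 in 7A and 6 in neither, against 90%, 87.8% and 7.91% of all such genes. The remaining 6, COL5A3, COL19A1, COL17A1, COL16A1, COL9A2 and COL5A2, had a gene-end peak in both mutant lists, as did nearly all genes of that WT strength (98.8% in 3A and 98.6% in 7A). With lists of equal length, 18 collagen genes had a WT gene-end peak, of which 11 had one in 3A, 12 in 7A and 6 in neither, against 96.2%, 97.1% and 1.89%. The 6 were COL4A1, COL4A2, COL6A1, COL8A2, COL20A1 and COL27A1, of which COL4A1 and COL4A2 share 1 peak, and they stand beside the 8 collagen genes above that had a mutant gene-end peak and none in WT at that length.

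Collagen gene-end peaks ranked lower within each list than the gene-end peaks of all genes, with medians somewhat past the middle of the list. The strongest gene-end peak of a collagen gene had a median fold enrichment of 9.89 in 3A, 8.80 in 7A and 9.93 in WT, against 14.8, 14.3 and 16.6 for all genes with such a peak. As positions, the collagen medians were the top 57.8% in 3A, 65.6% in 7A and 54.2% in WT, against 31.4%, 34% and 27.9% for all genes. In the top 25% of its list stood 1 collagen gene in 3A, 2 in 7A and 6 in WT, or 5.26%, 10% and 22.2% of those with a gene-end peak, against 41.5%, 38.9% and 46% of all genes with one. The range ran to 21.0 in 3A, 27.4 in 7A and 33.4 in WT at collagen genes, and to 311.3, 347.1 and 246.0 at all genes.

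**Figure D3:**
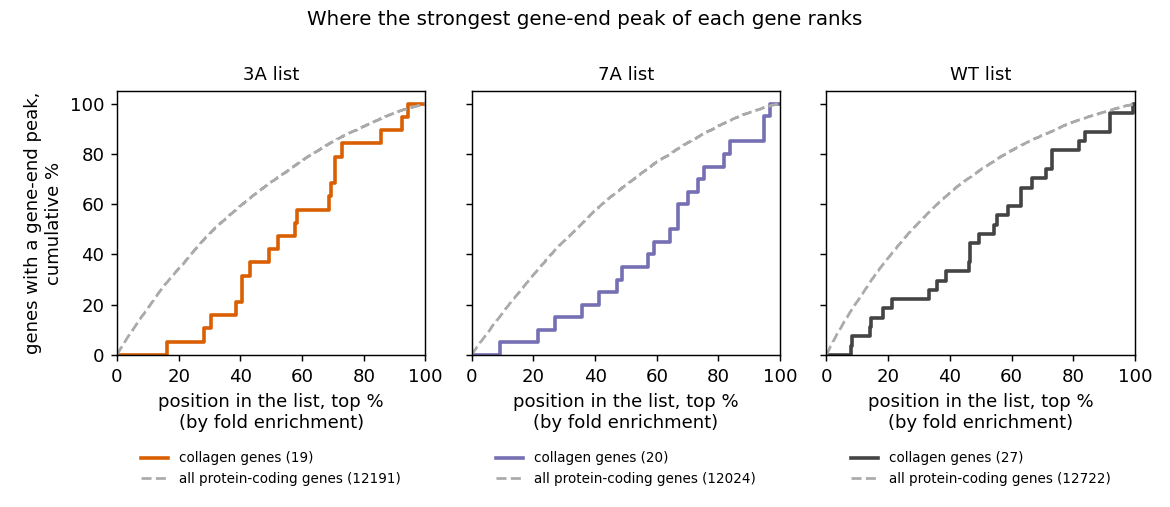
Cumulative share of genes with a gene-end peak, by the position of the strongest such peak in the 3A, 7A and WT lists, with top 0% at the head of the list. Solid steps are collagen genes (19, 20 and 27) and dashed lines are all protein-coding genes; the collagen steps stay below the dashed line over most of each list, with medians at the top 57.8%, 65.6% and 54.2%.

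Gene-end peaks were frequent at genes whose products fold, process and cross-link collagen. Of 19 genes for folding and modification in the endoplasmic reticulum, which include the prolyl and lysyl hydroxylases and collagen chaperones, all 19 had a gene-end peak in 3A, in 7A and in WT. Of 18 genes for processing and cross-linking outside the cell, 15 had one in 3A, 15 in 7A and 16 in WT. Receptors gave 5 of 9 in every list, and breakdown and uptake gave 7 of 11 in 3A, 6 in 7A and 7 in WT. In all, 46 of these 57 genes had a gene-end peak in 3A, 45 in 7A and 47 in WT, to be read against the 61%, 60.2% and 63.7% of all genes given above. Some of these peaks are shared with other genes. Among the folding genes, P3H4 and FKBP10 have the same WT peak. The WT peaks of PLOD3, P3H1, P3H3 and COLGALT1 also lie near ends of ZNHIT1, C1orf50, GPR162 and NIBAN3 in that order. Leaving out shared peaks was done for the collagen genes and not for these lists.

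Among the folding genes, P4HB, a subunit of prolyl 4-hydroxylase, had 19.7-fold in 3A, 21.9-fold in 7A and 29.0-fold in WT. The peak shared by P3H4 and FKBP10, a collagen modification factor and a prolyl isomerase, had 47.1-fold in 3A, 24.5-fold in 7A and 26.2-fold in WT. SERPINH1, the chaperone HSP47, had 13.7-fold in 3A, 10.9-fold in 7A and 25.1-fold in WT. Those named are the strongest of the group by WT peak. At the low end of the same group, P3H1, a prolyl 3-hydroxylase, had 10.3-fold in 3A, 7.88-fold in 7A and 8.21-fold in WT, and MIA3, which helps export procollagen, had 11.1-fold, 8.62-fold and 8.74-fold in the same order. P4HA3, a prolyl 4-hydroxylase subunit, had 19.1-fold in 3A, 17.9-fold in 7A and 5.00-fold in WT. These last genes were chosen after their values were seen.

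Outside the cell, the strongest gene-end peak in 7A and WT was at LOXL1, a lysyl oxidase that cross-links fibres, with 18.1-fold in 3A, 27.7-fold in 7A and 73.1-fold in WT. The summit of this WT peak, at position 73951219, lay at the end opposite the annotated start at 73926462. PCOLCE2, an enhancer of procollagen cleavage, had 18.6-fold in 3A, 21.5-fold in 7A and 46.8-fold in WT. TLL2, a procollagen protease of the BMP1 family, had 15.6-fold in 3A, 16.9-fold in 7A and 30.9-fold in WT, and LOXL3, another lysyl oxidase, had 15.7-fold, 25.0-fold and 29.7-fold in the same order, in WT at a peak shared with ends of AUP1 and HTRA2. That WT peak of LOXL3 had its summit at 74529873, also at the end opposite the annotated starts. LUM, a proteoglycan that binds fibrils, had a gene-end peak in WT alone (7.92-fold), and the related DCN and FMOD had no peak.

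Among receptors, the integrin gene ITGB1 had 15.3-fold in 3A, 8.69-fold in 7A and 24.5-fold in WT. ITGA11, which pairs with it to bind fibrillar collagen, had 19.2-fold in 3A, 39.6-fold in 7A and 16.5-fold in WT. ITGA2 had 8.80-fold in 3A, 10.3-fold in 7A and 11.6-fold in WT, and ITGA1 had 11.7-fold, 10.9-fold and 9.07-fold in the same order. The WT peak of ITGA1 also lies near an end of PELO. DDR1 and DDR2, the collagen-binding receptor kinases, had no gene-end peak. Of the breakdown genes, MMP2 had 11.2-fold in 3A, 13.6-fold in 7A and 19.5-fold in WT. TIMP1, an inhibitor of these proteases, had 18.7-fold in 3A, 10.2-fold in 7A and 14.0-fold in WT. MMP14, a membrane-bound collagenase, had 11.5-fold in 3A, 11.3-fold in 7A and 13.0-fold in WT. Its WT peak also lies near an end of MRPL52. MRC2, a receptor for collagen uptake, had 14.0-fold in 3A, 8.20-fold in 7A and 12.4-fold in WT. The peaks of MMP2, TIMP1, MMP14 and MRC2 were present in every list. Their ranks ran from the top 20.2% (TIMP1 in 3A) to the top 70.4% (MRC2 in 7A). MMP13, a collagenase, had a peak in 3A (7.82-fold) and WT (6.07-fold) and none in 7A.

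**Figure D4:**
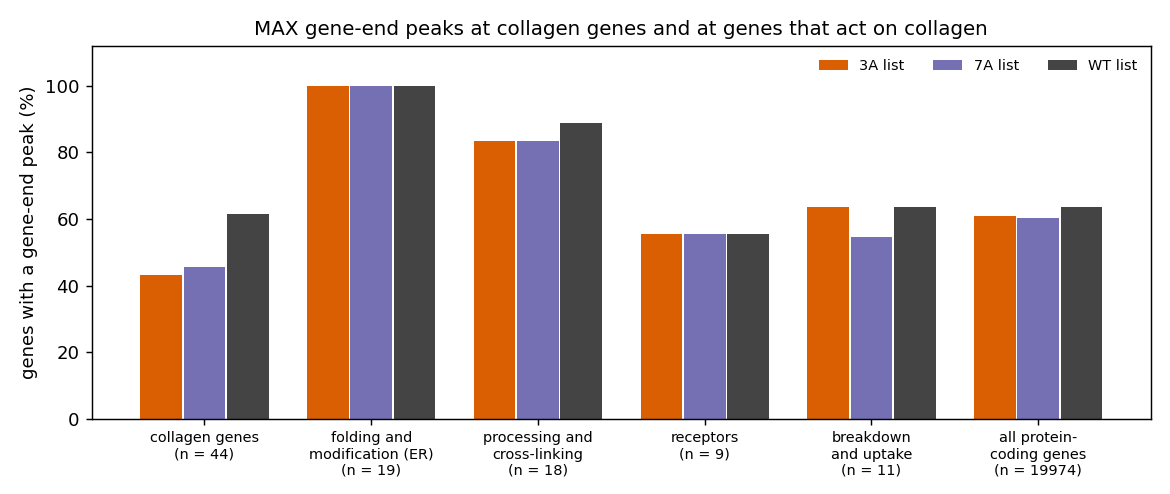
Share of genes with a gene-end MAX peak (%, bars from 0) in the 3A, 7A and WT lists, for the 44 collagen genes, 4 lists of genes that act on collagen and all 19974 protein-coding genes. All 19 folding genes have a peak in every list, while the collagen bars stand at 43.2%, 45.5% and 61.4%.

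Promoter windows of 300 bases (RefSeq, GRCh38.p14) were searched for the E-box CACGTG and the variants CACGCG and CATGTG, on both strands, with overlapping matches counted. The reverse complement of CACGTG is the same sequence, and those of CACGCG and CATGTG are CGCGTG and CACATG. None of the 44 windows of the 32 collagen genes with an entry held CACGTG, which occurs in 8.34% of all 22156 windows. CACGCG was in 4 collagen windows (14.2% of all windows) and CATGTG in 2 (8.94%). The 6 windows belong to COL8A2, COL10A1, COL11A2, COL23A1, COL24A1 and COL25A1, and none of these genes had a start-side peak in any list. Of genes with a WT start-side peak, 12.9% of 9902 held CACGTG and none of the 18 collagen genes did. For CACGCG the values were 23% and none, and for CATGTG 9.06% and none. Sequence outside the windows was not searched, so these values do not show whether the peaks themselves hold a motif. A WT summit fell inside a window at COL11A1, COL4A1, COL4A3, COL4A4, COL4A6 and COL6A2. At the other collagen genes with a WT start-side peak it fell outside, as at COL5A3 (1560 bp after the start) and COL19A1 (1038 bp after it).

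A collagen window with matches and no peak is set beside a folding gene with a match and a strong peak, with the motif in capitals. COL25A1 holds CACGCG at 2 places and had no peak at its start in any list. P3H2, a prolyl 3-hydroxylase, holds CACGTG 195 bp before its start, and its peak had 19.6-fold in 3A, 37.9-fold in 7A and 23.4-fold in WT, with the summit at -135 bp in 3A, -146 bp in 7A and -161 bp in WT from the start. The pair is an illustration, and its motifs differ. Of 15 folding genes with a promoter entry, P3H2 alone held CACGTG and 5 held CACGCG. All 19 folding genes nonetheless had a gene-end peak in every list.
COL25A1, chr4:109302609-109302908, minus strand: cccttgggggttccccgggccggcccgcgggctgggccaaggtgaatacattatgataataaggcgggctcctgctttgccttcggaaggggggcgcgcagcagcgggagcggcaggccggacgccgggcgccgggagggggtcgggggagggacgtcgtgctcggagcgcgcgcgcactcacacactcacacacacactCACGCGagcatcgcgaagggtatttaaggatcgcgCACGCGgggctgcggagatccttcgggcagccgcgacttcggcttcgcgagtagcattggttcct
P3H2, chr3:190120848-190121147, minus strand: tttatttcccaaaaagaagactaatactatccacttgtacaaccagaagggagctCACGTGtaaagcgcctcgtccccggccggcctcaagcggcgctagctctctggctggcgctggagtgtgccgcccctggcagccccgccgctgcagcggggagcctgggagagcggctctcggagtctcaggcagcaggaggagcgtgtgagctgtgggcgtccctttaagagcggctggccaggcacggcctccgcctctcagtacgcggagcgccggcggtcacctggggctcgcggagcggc

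The members nearest the 2500 bp limit were as follows. Just inside it lay the COL7A1 peak in 7A at 2388 bp, a second COL13A1 peak in WT at 2347 bp and a second COL1A1 peak in WT at 2305 bp. Just outside lay the COL9A3 peaks at 2540 bp in 3A, 2538 bp in 7A and 2536 bp in WT, and the COL27A1 peaks at 2694 bp in 3A and 2740 bp in 7A. Some peaks at collagen ends lie near other transcripts as well: LOC124902444 has an end within 1000 bp of the COL13A1 start-side summits, and the noncoding COL6A2-DT has one within 1000 bp of the COL6A2 summits.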

How the data were processed

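Per the labels there were 12 immunoprecipitated libraries (6 groups of 2 replicates) and 6 inputs. The labels give MAX as the antibody, but their protocol mentions an anti-FLAG one. Per the submitters' processing notes, the tools included MACS2, Bowtie2, Picard, cutadapt and SAMtools, and the genome builds mm10, hg38 and hg19, with neither version nor use stated. The authors deposited 1 headerless narrowPeak list per MYC form. Its fold enrichment is a linear ratio as deposited, and the −log10 q of the deposited lists was at least 5.04 in 3A, 5.69 in 7A and 5.15 in WT. Control, pooling and scaling by mouse reads are not given in the sources used here. Columns of other samples numbered 0.

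Summits were placed on hg38 and matched to outer gene ends of RefSeq GRCh38.p14, which carries no strand; starts came from RefSeq promoter entries, present for 32 of 44 collagen genes (not for COL1A1, COL1A2, COL2A1, COL3A1, COL5A2, COL6A1, COL6A5, COL8A1, COL9A3, COL14A1, COL20A1 and COL22A1). Peaks of different lists were matched when they shared at least 1 bp. In a check of the matching step, each simulated peak was matched against a single gene. The label of gene end, gene body or neither was right for 200 of 200. Telling neighbouring genes apart was not checked. The collagen genes, their classes and the related lists were chosen with earlier results of these data known. Named are all collagen genes with a gene-end peak, all whose presence differs between lists, and the 8 body-only genes with the strongest peak. For the related genes, each group contributes at most the 4 strongest by WT gene-end peak, plus any with such a peak in some lists but not all. With 1 list per form no test was run. The software was SciPy 1.17.1, matplotlib 3.10.9, NumPy 2.4.6 and pandas 2.3.3 under Python 3.11.15.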

Additional observations from a re-analysis of the deposited data

How the results depend on the processing

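Of 101 values recomputed under 9 other settings, 92 stayed within 1.5 times the reported count or within its 95% interval, and 9 moved. The WT count of 27 collagen genes with a gene-end peak fell to 18 with lists of equal length. It also fell to 18 with peaks near another protein-coding gene's end left out, where 3A and 7A had 15 each. Both WT values are exactly at the limit of 1.5 times and were scored as unmoved. The share over all genes was not recomputed without shared peaks. A reversal of direction was not scored. With each list held to its strongest 25159 peaks by −log10 q, the collagen genes without a peak numbered 12 in WT, body peaks per 100 kb fell to 0.668 in WT, gene-end peaks in all lists fell to 11 genes, and WT collagen peaks overlapped by a 3A or 7A peak came to 66.7% and 69.7%. By construction, that setting removes the weakest WT peaks. Body peaks without an end peak numbered 18 genes in WT with a 1000 bp window and 17 with peaks near another gene's end left out. Requiring summits within 100 bp gave overlaps of 44.1% (3A) and 43.2% (7A). A −log10 q of at least 10 could change no collagen gene, since the lowest value of any collagen peak was 11.1, at COL26A1 in 3A. That setting is therefore no check, although its values are among the 92. No paired analysis was possible because the lists carry no replicates. The depth behind each list is unknown, and intervals cover counting error only.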
